A study of Bos taurus with 96 samples.

Results

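The 100 genes described here had their highest average level just after calving in both liver and muscle of the same dairy cows. They were chosen by the counts themselves, as the 100 genes whose smallest rise over the other 2 time-points, taken over both tissues, was largest. The rule was applied to 10423 of the 24616 annotated genes, those with a mean of at least 1 CPM (a gene's count for every 1000000 counts of the library) in each tissue. RNA-seq counts of 96 libraries came from 16 Holstein cows of 1 herd, in their first or second parity, each biopsied in liver and in the semitendinosus muscle in late pregnancy (LP), in early lactation around the day after calving (EL) and in mid lactation (ML). 8 cows had good (Fert+) and 8 had poor (Fert-) genetic merit for fertility with a like merit for milk production. No time-point came from a cow that was neither pregnant nor lactating, so the levels at LP are those of late pregnancy and not of rest.

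Calving brings a surge of cortisol and the start of copious milk secretion. The endoplasmic reticulum (ER) folds milk, plasma and membrane proteins with chaperones and disulfide isomerases, and cells that sense unfolded protein there raise these helpers through the unfolded protein response. Glucocorticoids also switch on metallothioneins, which bind zinc and copper, and FKBP5, which binds the glucocorticoid receptor complex and limits its activity. In cows the days around calving are further known for acute-phase proteins from liver and for a demand for fatty acid oxidation.

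Liver libraries held from 14966847 to 26358063 counts and muscle libraries from 15279337 to 22018740, and no pair of libraries of a group held the same counts. A set of 19 genes that were near 0 elsewhere was counted in 13 libraries, 8 of liver and 5 of muscle, which counted between 11 and 17 of them while the other 83 counted at most 3. These 13, set apart here by those counts alone, are called the B libraries. In liver they were 2 of LP, 3 of EL and 3 of ML, 6 of the 8 from Fert+ cows, and in muscle all 5 came from Fert- cows. Hepatocyte markers (14 genes) summed to between 110182 and 230012 CPM in liver and to between 1.46 and 179 in muscle. Skeletal muscle markers (15 gene entries) summed to between 70678 and 288998 CPM in muscle and to between 10.99 and 58.1 in liver. 4 of the 14 hepatocyte markers were called lower at EL in liver, though not without the B libraries. In muscle the markers of the tissue itself fell at EL, with 14 of 15 entries lower than at both other time-points by edgeR's quasi-likelihood test. ACTA1, skeletal actin, took a median of 3.94% of the counts at LP, 0.956% at EL and 4.80% at ML. Beside this, the median of all 10423 genes stood 0.36 higher at EL than at LP and 0.39 higher than at ML on the log2(CPM + 1) scale in muscle, against 0.04 and -0.02 in liver. Values below are on this scale unless said otherwise, and a muscle difference is to be read against that shift. After TMM scaling, which sets library totals by the bulk of genes, the muscle medians of all genes were 0.05 and 0.05. In bulk tissue, more cells of a type and more RNA of a gene per cell cannot be told apart.

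The 4 values that chose the members are the means over 16 cows of EL-LP and of EL-ML in liver and in muscle. They are given as a description and carry no test. The smallest of the 4 ran from 0.42 to 1.85 over the members, with a median of 0.50. Of the 10423 genes, 3877 had all 4 values above 0. The median member was 0.53 above LP and 0.74 above ML in liver, and 0.69 and 0.77 in muscle. On TMM-scaled totals the medians were 0.51 and 0.80 in liver but 0.37 and 0.43 in muscle, and all 100 members kept 4 values above 0. ENSBTAG00000047354 (0.423) and ENSBTAG00000001778 (0.4204) were the last members inside the limit. ENSBTAG00000013641 (0.42) and ENSBTAG00000032374 (0.419) were the first outside, followed by SLC2A8 (0.418), a sugar transporter, and MX1 (0.417), an antiviral GTPase. The genes on either side of the limit thus differed by far less than the spread between cows.

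**Figure D1:**
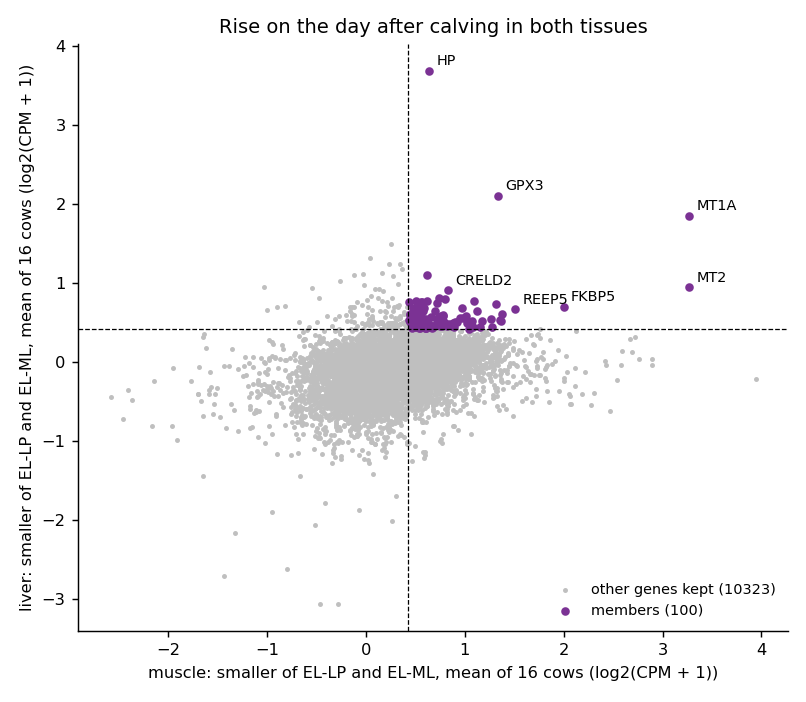
Each point is 1 of 10423 genes, placed by its smaller mean difference (EL-LP or EL-ML, 16 cows, log2(CPM + 1)) in muscle on the x axis and in liver on the y axis. The dashed lines mark the limit at 0.42, the 100 members lie above and to the right of both, and the grey cloud is centred right of 0 in muscle but near 0 in liver.

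The study's tables pair 38 of the 100 members with a gene name, and the other 62 are known here only by their Ensembl number. Names came from the study's lists of genes called different between genotypes and from those rows of its expression lists that could be read. The named members are therefore not a sample of all. A name can itself rest on a genotype call in these same libraries. The groups by role, the list counts and the names in the genotype tests below carry this selection too. The unnamed members covered 0.42 to 1.24 for EL-LP and 0.42 to 1.27 for EL-ML in liver, and 0.47 to 1.36 and 0.44 to 2.202 in muscle. Among the 12 members with the largest smallest value, 9 had names. In order these were MT1A, GPX3, MT2, CRELD2, PIM1, HYOU1, DNAJB11, FKBP5 and REEP5. Members were more abundant in liver than the genes they were drawn from, with a median of mean levels of 40.7 CPM against 14.8, and 76 of 100 lay above the median gene. In muscle the figures were 15.1 against 12.9 CPM, and 55 of 100 lay above. The offset of 1 CPM shrinks the differences of low genes, so the rule itself leans to abundant ones. Together the members took a median of 0.96% of liver counts at LP, 3.26% at EL and 0.836% at ML. HP, haptoglobin, alone had a median of 15054 CPM there at EL. In muscle the members took 0.492%, 1.18% and 0.476%.

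Metallothioneins led the list. MT1A, a small cysteine-rich protein that binds zinc and copper, had the largest smallest value of all genes. In liver its level ran from 3.04 to 969.8 at LP (median 62.6), from 20.3 to 1677 at EL (median 351) and from 4.93 to 401 at ML (median 25.9) CPM. In muscle it ran from 0 to 0.64 at LP (median 0.29), from 0.172 to 197 at EL (median 8.06) and from 0.0522 to 1.28 at ML (median 0.152) CPM. The ranges overlapped in both tissues, and muscle went from almost no counts to a clear level in most but not all cows. The mean differences (± SD, n = 16 cows) were 1.85 ± 3.13 for EL-LP and 2.93 ± 2.54 for EL-ML in liver, and 3.27 ± 2.27 for EL-LP and 3.31 ± 2.32 for EL-ML in muscle. EL was the highest of the 3 time-points in 9 of 16 cows in liver and of 14 in muscle. MT2, which the study describes as metallothionein 2A, ran in muscle from 5.19 to 28 at LP (median 9.9), from 5.67 to 1409 at EL (median 124) and from 2.06 to 12.1 at ML (median 5.79) CPM, and in liver from 23.1 to 729 at LP (median 116), from 35 to 1048 at EL (median 260.2) and from 27.2 to 245 at ML (median 80.5) CPM. Its mean differences were 3.27 ± 2.10 for EL-LP and 4.08 ± 2.31 for EL-ML in muscle, the largest muscle values of any member, and 0.94 ± 2.28 for EL-LP and 1.55 ± 1.57 for EL-ML in liver. Metallothionein genes are near-identical copies, so reads may be split among them. 2 further entries named MT1E were too low in muscle to enter the rule. By edgeR's quasi-likelihood test both were higher there at EL than at LP, by 3.07 and 3.97 on the log2 scale, from medians of 0.112 and 0.0524 CPM to 0.686 and 0.648. SLC30A7, which carries zinc into the Golgi, lay lower, at 0.52 (EL-LP) and 0.79 (EL-ML) in liver, with 0.47 and 0.59 in muscle.

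GPX3, the secreted glutathione peroxidase that reduces peroxides in plasma, had the widest spread among cows of any member in liver after HP. It ran from 11.5 to 4831 at LP (median 97.8), from 36.8 to 3107 at EL (median 1045) and from 35.2 to 2950.0 at ML (median 126) CPM in liver. In muscle it ran from 20.9 to 80.9 at LP (median 36.4), from 41.3 to 324 at EL (median 94.5) and from 20.6 to 64.6 at ML (median 30.2) CPM. Single cows were as high at LP or ML as others at EL in liver, while in muscle 15 of 16 cows were highest at EL. The mean differences were 2.75 ± 3.32 for EL-LP and 2.10 ± 2.64 for EL-ML in liver, and 1.34 ± 0.72 for EL-LP and 1.64 ± 0.90 for EL-ML in muscle.

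A group of 9 named members folds proteins in the ER or disposes of those that fail. It was put together after the names of the members were known. HYOU1 and HSP90B1 are ER chaperones, DNAJB11 is a J-domain co-chaperone, CALR binds sugar chains of new glycoproteins, P4HB and PDIA3 are disulfide isomerases, and MANF and CRELD2 are small ER proteins induced by unfolded protein. SYVN1 is the ubiquitin ligase that marks misfolded proteins for destruction. The median of the 9 was 0.74 above LP and 1.001 above ML in liver, and 0.65 and 0.74 in muscle. On TMM-scaled totals it was 0.72 and 1.07 in liver but 0.33 and 0.38 in muscle. 1 animal weighed on the liver values: without Fert+ cow 3847, whose liver library at EL is a B library, the liver medians were 0.53 and 0.79.

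HYOU1 in liver ran from 34.6 to 97.1 at LP (median 56.8), from 26.5 to 1573 at EL (median 79.3) and from 18.4 to 169 at ML (median 29.9) CPM. In muscle it ran from 4.45 to 9.91 at LP (median 6.48), from 6.63 to 23.8 at EL (median 11.9) and from 5.32 to 8.93 at ML (median 6.6) CPM. The highest liver value at EL was that of cow 3847, and 11 of 16 cows were highest at EL in liver against 16 of 16 in muscle. Its mean differences were 0.80 ± 1.602 for EL-LP and 1.53 ± 1.58 for EL-ML in liver, where the SD was as large as the mean, and 0.81 ± 0.35 for EL-LP and 0.74 ± 0.52 for EL-ML in muscle. CRELD2 had the largest liver values of the group, with 0.91 ± 1.52 for EL-LP and 1.72 ± 1.46 for EL-ML, and it ran from 9.78 to 39.2 at LP (median 20.9), from 9.92 to 404 at EL (median 27) and from 4.73 to 37.9 at ML (median 10) CPM there. In muscle it was near the limit of 1 CPM, with medians of 1.15, 2.65 and 0.976 CPM at LP, EL and ML. DNAJB11 had medians of 40.8, 52.3 and 28.4 CPM in liver and 10.3, 16.9 and 10.1 in muscle, and MANF of 58.9, 79.1 and 33.3 and 12.4, 17.1 and 11.8. Both reached their highest value of all libraries in liver at EL, 678 CPM for DNAJB11 and 747 CPM for MANF.

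P4HB behaved otherwise, with little spread and the largest muscle values of the group. In muscle it ran from 105 to 184 at LP (median 152), from 236 to 646 at EL (median 348) and from 106 to 193 at ML (median 127) CPM, so that every library at EL lay above every library at the other time-points. In liver it ran from 1270.4 to 3098 at LP (median 1538), from 1416 to 4025 at EL (median 2542) and from 1131 to 2160.0 at ML (median 1494) CPM, with overlap. The mean differences were 1.37 ± 0.43 for EL-LP and 1.55 ± 0.50 for EL-ML in muscle, and 0.60 ± 0.62 for EL-LP and 0.69 ± 0.53 for EL-ML in liver. 7 members had muscle libraries at EL that did not overlap those at LP and ML, and of the 10423 genes 236 did (2.26%). In liver 0 members and 0% of all genes did. These counts rest on the contrasts of the rule and are given as a description. HSP90B1, CALR and PDIA3 were among the abundant members of liver. HSP90B1 had liver medians of 881, 1261 and 736 CPM at LP, EL and ML, CALR of 755, 1043 and 659 and PDIA3 of 482, 713 and 499.6. In muscle the medians were 78.2, 116 and 81.2 CPM for HSP90B1, 75.9, 115 and 71.7 for CALR and 59.5, 89.9 and 59 for PDIA3. On TMM-scaled totals, which lowered every muscle difference, EL-LP and EL-ML in muscle were 0.20 and 0.11 for HSP90B1 and 0.31 and 0.33 for CALR. SYVN1 had EL-LP of 0.44 in liver and 0.64 ± 0.18 in muscle, where EL was highest in all 16 cows.

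4 further named members serve entry into the ER or export from it. SEC61G is a subunit of the translocation channel and SERP1 stabilises new membrane proteins there, SEC23B is a coat subunit of the vesicles that leave the ER, and TFG organises the sites from which they leave. Their median was 0.62 above LP and 0.89 above ML in liver, and 0.56 and 0.72 in muscle, or 0.24 and 0.35 in muscle on TMM-scaled totals. In liver EL was highest in 9 of 16 cows for SEC23B, 10 for SEC61G, 10 for SERP1 and 11 for TFG. In muscle the counts were 15, 15, 15 and 16. REEP5, a protein that shapes ER tubules, ran in muscle from 109 to 218 at LP (median 144), from 129 to 1388 at EL (median 482) and from 83.2 to 179 at ML (median 114) CPM, and its mean differences were 0.77 (EL-LP) and 0.66 (EL-ML) in liver, with 1.51 and 1.88 in muscle. The name TFG is shared by more than 1 Ensembl entry, and the member is ENSBTAG00000016363. GMPPB, which makes the GDP-mannose used in sugar chains, lay at 0.61 (EL-LP) and 1.05 (EL-ML) in liver, with 0.49 and 0.45 in muscle.

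**Figure D2:**
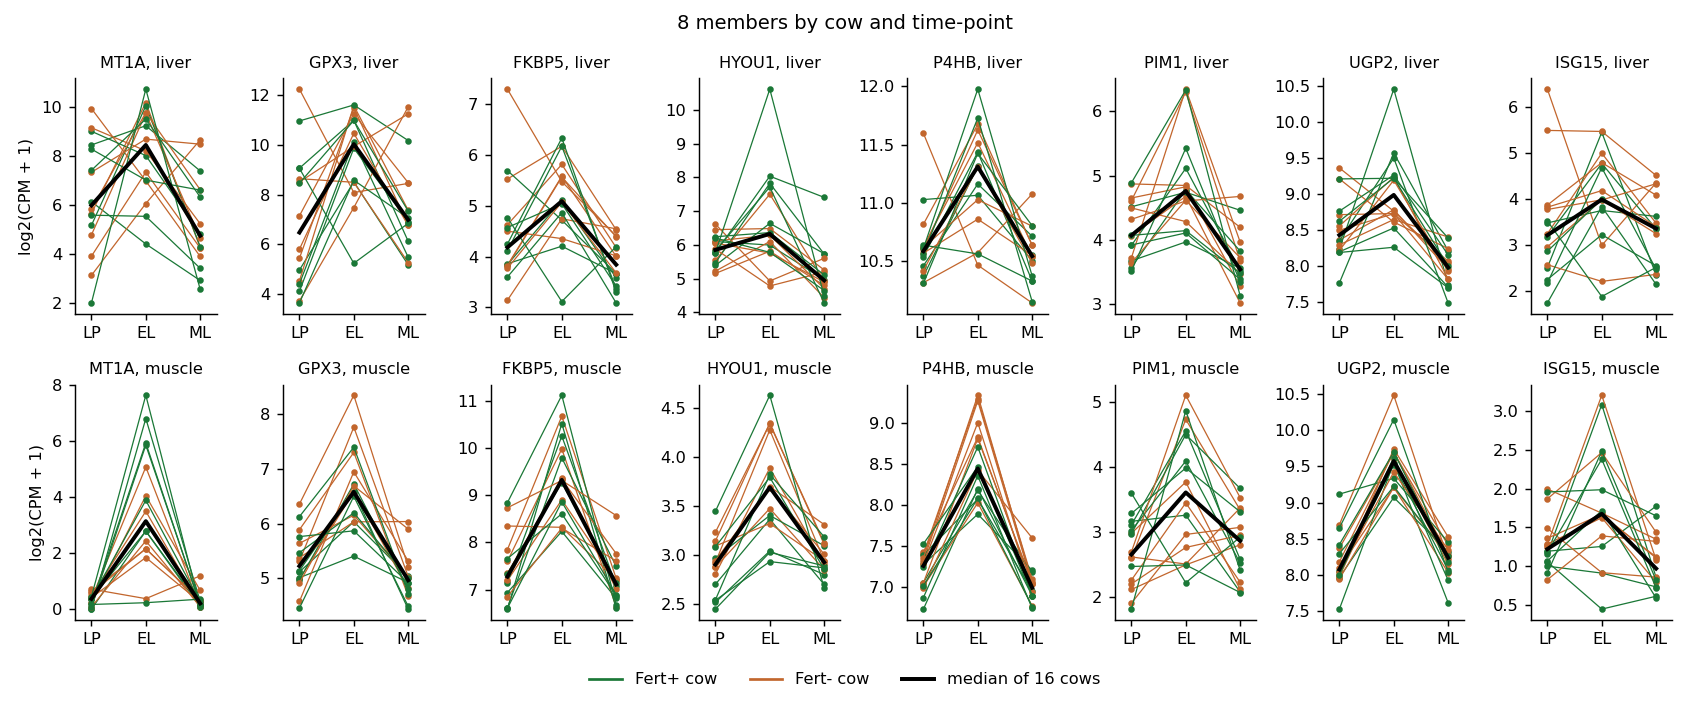
Level of 8 members (log2(CPM + 1), y axis, a scale for each panel) at LP, EL and ML in liver (top) and muscle (bottom), with 1 thin line per cow, green for Fert+ and orange for Fert-, and the median of 16 cows in black. The muscle lines of P4HB and UGP2 peak at EL in all 16 cows, while in the liver panels lines of single cows cross or fall.

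FKBP5, the co-chaperone that glucocorticoids induce, was the third most abundant member of muscle. There it ran from 95.1 to 457 at LP (median 154), from 299 to 2216 at EL (median 639) and from 96.2 to 379 at ML (median 137) CPM, and in liver from 7.81 to 156 at LP (median 17.2), from 7.66 to 79.6 at EL (median 33.1) and from 7.49 to 22.4 at ML (median 13.4) CPM. The mean differences were 1.998 ± 1.01 for EL-LP and 2.25 ± 1.12 for EL-ML in muscle, and 0.70 ± 1.26 for EL-LP and 1.27 ± 0.98 for EL-ML in liver. In muscle 15 of 16 cows were highest at EL, and in liver 12 of 16. PIM1, a survival kinase made upon cytokine signals, had medians of 15.8, 26.1 and 10.6 CPM in liver and 5.3, 11.3 and 6.29 in muscle at LP, EL and ML. EL was highest in 13 cows in liver, more than in muscle (11). MAFF, a small basic leucine zipper factor, was largely a muscle transcript, with medians of 45.4, 91.6 and 25.7 CPM there and 3.59, 4.74 and 2.6 in liver. In muscle it was highest at EL in all 16 cows, by 1.27 ± 1.07 for EL-LP and 2.13 ± 1.02 for EL-ML. BCL3, a co-regulator of NF-kB, lay at 0.80 (EL-LP) and 0.68 (EL-ML) in liver, with 0.48 and 0.47 in muscle. CSDA, a cold-shock domain protein that binds DNA and RNA and that RefSeq now calls YBX3, was the most abundant member of muscle, running from 1711 to 3469.8 at LP (median 2330.1), from 2943 to 9928 at EL (median 5915) and from 1739.7 to 2775 at ML (median 2319) CPM. In liver its medians were 43, 55 and 37.3 CPM.

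2 named members belong to fuel metabolism. UGP2 makes UDP-glucose, the donor for glycogen and for glucuronic acid, and CPT1B lets long-chain fatty acids into mitochondria, mainly in muscle. UGP2 in muscle ran from 184 to 554 at LP (median 269), from 537 to 1429.7 at EL (median 761) and from 195 to 368 at ML (median 301) CPM, and in liver from 217 to 659 at LP (median 344), from 306 to 1409 at EL (median 512) and from 178 to 338 at ML (median 252) CPM. EL was highest in all 16 cows in muscle and in 14 in liver. Its mean differences were 0.51 (EL-LP) and 1.07 (EL-ML) in liver, with 1.37 and 1.38 in muscle. CPT1B in muscle ran from 38.6 to 71.4 at LP (median 46.9), from 67.7 to 151 at EL (median 112) and from 44.1 to 66.4 at ML (median 57.3) CPM and was highest at EL in all 16 cows. In liver, where it was low, it ran from 3.51 to 27.8 at LP (median 7.45), from 1.67 to 64.7 at EL (median 12.3) and from 2.49 to 12.6 at ML (median 5.96) CPM, and EL was highest in 8 of 16 cows, the fewest of any member together with ENSBTAG00000021523.

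HP and A2M are plasma proteins that bind hemoglobin and proteases, and HP is the main acute-phase protein of cattle. HP was the most abundant member of liver and had its largest values, running from 52.9 to 34630.1 at LP (median 554), from 53.8 to 42432 at EL (median 15054) and from 26.9 to 20853 at ML (median 531) CPM. Cows at each time-point spanned the whole scale from low to very high levels, and EL was highest in 12 of 16. The mean differences in liver were 3.68 ± 4.51 for EL-LP and 3.76 ± 3.67 for EL-ML. In muscle HP was close to the CPM minimum, running from 0 to 0.692 at LP (median 0.17), from 0.193 to 7.78 at EL (median 1.04) and from 0.0454 to 27.4 at ML (median 0.213) CPM. Its place among the members rested on 1 muscle library, cow 996 at ML with 27.4 CPM: the mean over muscle libraries was 1.32 CPM with it and 0.762 without it, under the minimum of 1 CPM. A2M ran from 236 to 1824 at LP (median 558), from 136 to 10286 at EL (median 891) and from 106 to 751 at ML (median 384) CPM in liver and had medians of 49.5, 62 and 43.5 CPM in muscle. On TMM-scaled totals its muscle differences were 0.09 and 0.16, the former the smallest of the members for EL-LP in muscle. Hepatocyte markers in muscle summed to a median of 3.04 CPM at LP, 3.60 at EL and 11.4 at ML. The muscle library with most HP, 27.4 CPM at ML, held 165 CPM of them. 2 others at ML held 179 with 0.67 and 0.376 CPM of HP. The highest muscle library at EL, 7.78 CPM of HP in cow 3847, held 3.01. HP in liver itself varied widely between cows, and whether liver RNA added to HP in muscle was not tested.

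3 members are induced by interferon: ISG15, a ubiquitin-like modifier, HERC6, a ligase of the family that attaches it, and OAS1Y, which senses double-stranded RNA. Conceptus interferon raises such genes early in bovine pregnancy, long before the samples at LP. In liver ISG15 ran from 2.33 to 82.2 at LP (median 8.24), from 2.67 to 43 at EL (median 14.8) and from 3.4 to 21.7 at ML (median 9.21) CPM, HERC6 had medians of 7.54, 13.4 and 10.4 CPM and OAS1Y of 75.6, 107 and 56. In muscle the medians were 1.33, 2.19 and 0.962 CPM for ISG15, 3.39, 5.38 and 3.46 for HERC6 and 5.3, 8.76 and 5.05 for OAS1Y. The groups overlapped for all 3 in both tissues, and EL was highest in 11, 11 and 13 of 16 cows in liver and in 11 for each in muscle. The median of the 3 was 0.65 above LP and 0.75 above ML in liver and 0.50 and 0.65 in muscle, or 0.27 and 0.30 in muscle on TMM-scaled totals.

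The remaining named members are of varied role. TIMM17A, a subunit of the mitochondrial import channel, lay at 0.64 (EL-LP) and 0.74 (EL-ML) in liver, with 1.12 and 1.21 in muscle, and MARS (MARS1 in RefSeq), the methionyl-tRNA synthetase, at 0.47 (EL-LP) and 0.84 (EL-ML) in liver, with 0.84 and 0.95 in muscle. DESI1, a protease that removes SUMO from some proteins, lay at 0.52 (EL-LP) and 0.69 (EL-ML) in liver, with 1.17 and 1.25 in muscle, and RPLP2, a stalk protein of the ribosome, at 0.44 (EL-LP) and 0.53 (EL-ML) in liver, with 0.53 and 0.51 in muscle. SMIM14, a small membrane protein, lay at 0.48 (EL-LP) and 1.15 (EL-ML) in liver, with 0.48 and 0.65 in muscle. CGREF1, a secreted calcium-binding protein, and DKFZP564O0823 (PARM1 in RefSeq) were among the least abundant named members, with medians over libraries under 6 CPM at every time-point in both tissues.

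**Figure D3:**
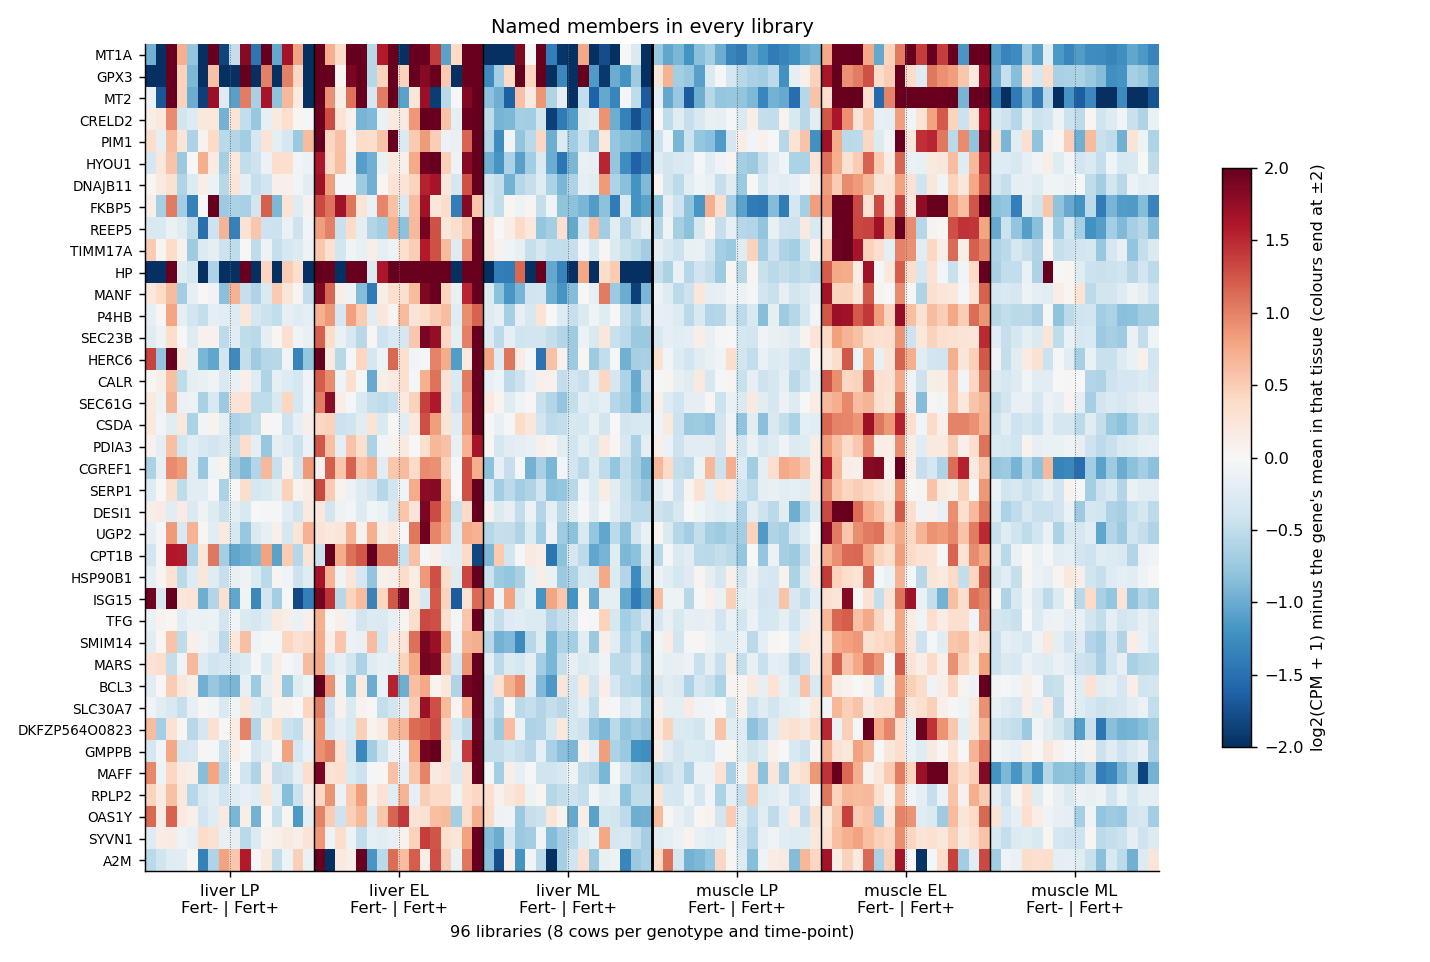
Level of the 38 named members in all 96 libraries, as log2(CPM + 1) minus the gene's mean in that tissue. Columns run from liver LP to muscle ML with Fert- cows left of Fert+ cows in each block. The EL blocks are red in muscle for most cows and uneven in liver, where the last column of liver EL, cow 3847, is dark red for nearly all ER genes.

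Cows differed more in liver than in muscle. Averaged over the 100 members, a cow's EL-LP in liver ran from -0.55 to 2.14 (median 0.58) and EL-ML from 0.02 to 2.72 (median 0.74). In muscle EL-LP ran from 0.48 to 1.17 (median 0.84) and EL-ML from 0.40 to 1.54 (median 0.96). Cow 426 (Fert-) and cow 3434 (Fert+) had a mean EL-LP below 0 in liver and still had 98 and 89 of the members highest at EL in muscle. Cow 3847 had the highest liver means. A member was highest at EL in a median of 11 of 16 cows in liver and 15 in muscle. In liver no member was highest at EL in all 16 cows, and in muscle 38 were. The share of all genes is not given here. In muscle the median of all genes was itself higher at EL, by 0.36 over LP and 0.39 over ML. Without cow 3847 all 100 members kept 4 values above 0, and the medians were 0.46 and 0.61 in liver against 0.67 and 0.75 in muscle.

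Mid lactation and late pregnancy were not alike for all members. ML-LP is the difference between the 2 contrasts of the rule and is given with no test. Its median over the members was -0.18 in liver and -0.09 in muscle, against 0.06 and -0.04 over all 10423 genes. 16 of 100 members were above 0 in liver and 23 in muscle. Averaged over tissues, the lowest were CGREF1 (-0.71), MT2 (-0.71) and MAFF (-0.58), which had lower levels in mid lactation than in late pregnancy in both tissues. The highest were GPX3 (0.17), ENSBTAG00000006921 (0.12) and HP (0.12). For GPX3 the tissues differed in sign, with 0.64 ± 3.01 in liver and -0.30 ± 0.70 in muscle (SD, n = 16).

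To see whether cows that took no part in the choice show the same genes, the rule was rebuilt in 1 genotype and its 100 genes were tested in the other with edgeR's quasi-likelihood test (Benjamini-Hochberg adjusted p under 0.05). Of the 100 genes rebuilt in Fert+ cows 38 are members, and of those rebuilt in Fert- cows 42. The counts below are thus mostly of genes outside the members described here. The 2 rebuilt lists shared 14 genes. All are members, which follows from the limits of the 2 lists (0.59 in Fert+ and 0.26 in Fert- cows) and is no support. The overlap that unrelated lists would have was not computed. MT1A, GPX3, FKBP5, PIM1 and P4HB were the named ones. Of the 100 genes rebuilt in Fert- cows, 8 were higher at EL in all 4 tests in Fert+ cows, against 0.916% of all genes tested, among them P4HB. Single tests called 29 of the 100 in liver against LP (3.53% of all genes), 73 against ML (16.9%), 35 in muscle against LP (18.7%) and 53 against ML (23.1%). Against the pattern, 2 of the 100 were lower at EL in muscle against LP (16.3% of all genes) and 4 against ML (19.1%). All 4 means in Fert+ cows were above 0 for 88 of the 100. The share of all genes with 4 means above 0 is not given here for the cows of either genotype. Over all 16 cows it was 3877 of 10423 genes. With the cow as a replicate block the 8 became 10. Without cow 3847 the 8 became 5, and without the B libraries 0, since then 0 of 13431 genes were called between EL and LP in liver of Fert+ cows by edgeR (2207 at an unadjusted p under 0.05). Of the 100 genes rebuilt in Fert+ cows, 0 were higher in all 4 tests in Fert- cows, as were 0% of all genes, because 0 of 13370 genes passed for EL against LP in Fert- liver by edgeR (521 at an unadjusted p under 0.05, and 1 by DESeq2). The other tests called 15 against ML in liver (2.72% of all genes), 82 against LP in muscle (22.6%) and 89 against ML in muscle (24.7%), while 2 were lower against LP (18.2%) and 0 against ML (21.8%) there, and all 4 means were above 0 for 51. With DESeq2 in place of edgeR the counts were 14 in Fert+ and 0 in Fert- cows, with the shares of all genes not given here. The liver difference between EL and LP was thus not detectable gene by gene with 8 Fert- cows.

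Genotype was not used by the rule, and the members were compared between genotypes at each time-point, with 8 cows against 8. The rule's means over cows do lean to genes raised at EL in a single cow. Without Fert+ cow 3847 the rule took 76 of the 100 members. The counts and medians of members at EL are therefore not free of the choice. edgeR's quasi-likelihood test called 0 of the members at LP, EL and ML in liver and in muscle, where it called 0% of all genes in each test save muscle EL (0.00831%). DESeq2 called 1 member, in liver at EL, with the share of all genes not given here. The smallest adjusted p of a member was 0.203, for ENSBTAG00000002707 in muscle at EL. These counts are no sign that the genotypes were alike, since almost no gene passed at all. 2 of the 100 were too low to be tested in muscle at LP and at ML. At an unadjusted p under 0.05, members numbered 7 at LP, 32 at EL and 16 at ML in liver, where 6.54%, 11.7% and 12.4% of all genes did, and 11, 21 and 10 in muscle, where 6.69%, 11.8% and 7.65% did. In liver at EL 83 of 100 members were higher in Fert+ cows, against 50.2% of all genes, with a median log2 fold change of 0.45 against 0.00. Without the B libraries the median was 0.26 and 73 were higher. Without cow 3847 the median was 0.16 and 67 were higher, with 12 members at an unadjusted p under 0.05. That lies near the 11.7% of all genes in the full set. The shares of all genes for these reduced sets, and for those of muscle below, are not given here. In muscle at EL the median was -0.15 against -0.02 of all genes and 27 of 100 were higher in Fert+ cows, where 46.3% of all genes were. Without the B libraries, all of Fert- cows in muscle, the median was -0.06 and 36 were higher, and without cow 3847 it was -0.19 and 20 were higher.

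The exact test of edgeR with 1 common dispersion called more (the study's methods name a common dispersion but no form of test): 6 members at LP, 23 at EL and 9 at ML in liver against 2.38%, 2.31% and 2.11% of all genes, and 1, 7 and 3 in muscle against 1.79%, 3.64% and 1.78%. 22 of the 23 in liver at EL were higher in Fert+ cows. That test gives every gene the same spread between cows, while the quasi-likelihood test fits a spread for each gene. The members with the smallest p in each quasi-likelihood test were named by rule, and their log2 differences (Fert+ minus Fert-) are given ± SE with edgeR's adjusted p. In liver at EL CPT1B ran from 1.67 to 13.2 CPM (median 7.8) in Fert+ and from 6.04 to 64.7 CPM (median 19) in Fert- cows, a difference of -1.79 ± 0.39 with an adjusted p of 0.379. It went against most members there. MARS was next, with 1.18 ± 0.34 and an adjusted p of 0.379. In liver at LP ISG15 (-2.01 ± 0.61, adjusted p 0.731) and OAS1Y (-0.80 ± 0.27, adjusted p 0.731) came first, both lower in Fert+ cows. At ML FKBP5 (-0.66 ± 0.18, adjusted p 0.224) and ISG15 (-1.03 ± 0.31, adjusted p 0.248) did. In muscle at ML OAS1Y (-0.56 ± 0.14) and DKFZP564O0823 (-0.71 ± 0.20) came first, both with an adjusted p of 0.49. Their groups overlapped, as did those of all genes named here. ENSBTAG00000006085 (-0.31 ± 0.09) and ENSBTAG00000008703 (-0.41 ± 0.13) came first in muscle at LP, with adjusted p of 0.476 and 0.506. ENSBTAG00000002707 (-0.52 ± 0.14) and ENSBTAG00000003062 (-0.49 ± 0.15) did at EL, with 0.203 and 0.224.

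**Figure D4:**
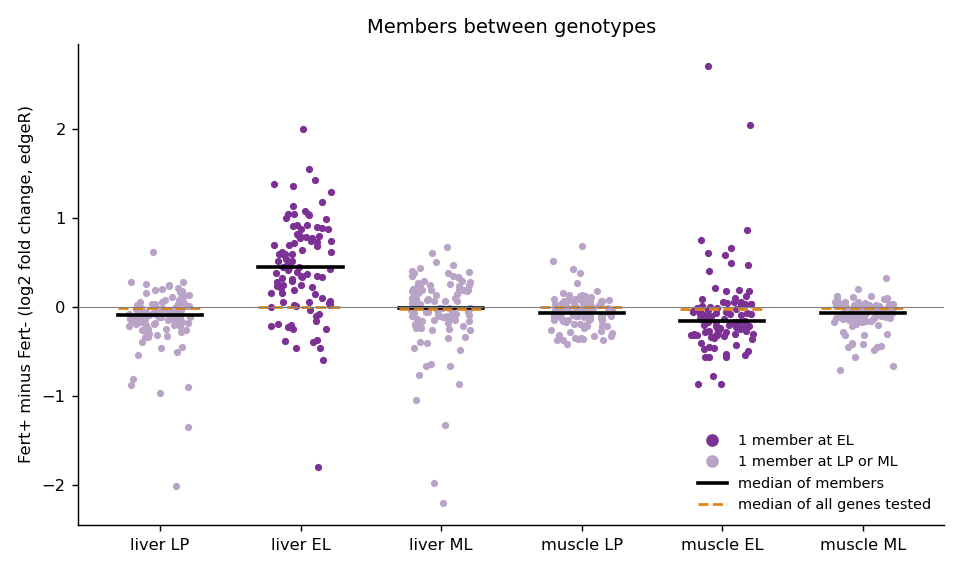
Log2 fold change between genotypes (Fert+ minus Fert-, edgeR, y axis) of each member, 1 point per member, at each time-point in liver and muscle (x axis), darker at EL. Black bars are medians of members and dashed orange bars medians of all genes tested: the black bar stands farthest from the orange one at liver EL (0.45 against 0.00).

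The difference in the rise itself was tested with both interaction terms of genotype and time-point. Since the rule used the mean rise, counts of members here are not free of the choice either. edgeR's quasi-likelihood test called 0 members in liver and 0 in muscle, as 0% of all genes, and DESeq2 called 0 members in either. The smallest adjusted p was 0.502 in liver and 0.467 in muscle. 28 members in liver and 16 in muscle had an unadjusted p under 0.05, where 6.60% and 6.76% of all genes did. Without cow 3847 the numbers were 8 and 14, with the shares of all genes for those cows not given here. The 8 in liver lies near the 6.60% of all genes in the full set. In liver 88 of 100 members had a larger rise over LP in Fert+ cows, and the median difference of the rises was 0.56 over LP and 0.45 over ML, against -0.01 and 0.02 for all genes. Without cow 3847 it was 0.28 and 0.16. In muscle it was -0.08 and -0.09, and 0.01 and 0.00 without the B libraries, which in muscle are all of Fert- cows. The smallest p in liver were those of ENSBTAG00000002707 and DESI1. DESI1 was on average 1.06 ± 0.88 above LP in Fert+ and -0.02 ± 0.23 in Fert- cows (SD, n = 8, edgeR adjusted p = 0.533). In muscle the smallest p were those of MT1A and ENSBTAG00000002995. MT1A was 4.28 ± 2.48 above LP in Fert+ and 2.26 ± 1.58 in Fert- cows (edgeR adjusted p = 0.467), and ran from 0.172 to 197 CPM (median 35.2) in Fert+ and from 0.295 to 32.5 CPM (median 3.92) in Fert- cows at EL.

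Whether cows with a large liver response also had a large muscle response was asked gene by gene, with the response taken as EL minus the mean of LP and ML. The rule used means over cows, but a cow with a large response in both tissues raises those means and r alike. An excess of members with r above 0 is therefore not free of the choice. 0 of the 100 members passed a two-sided permutation test of Pearson's r over 16 cows after adjustment over 10423 genes, and 0% of all genes did. At an unadjusted p under 0.05, 17 members had r above 0, where 3.25% of all genes did, and 2 had r below 0 (REEP5 with -0.53 and ENSBTAG00000002707 with -0.59), where 3.99% did. r was above 0 for 60 of 100 members, with a median of 0.11, against 45.1% of all genes and a median of -0.04. The highest were ENSBTAG00000021819 with r = 0.74 (permutation p = 0.00188, adjusted 0.474, Spearman's rho = 0.57 with p = 0.0229), ENSBTAG00000046588 with r = 0.63 (permutation p = 0.00887, adjusted 0.593, rho = 0.61 with p = 0.014) and CRELD2 with r = 0.59 (permutation p = 0.0139, adjusted 0.593, rho = 0.57 with p = 0.0233). Leaving out the 2 cows farthest from the median in liver gave r = 0.35, 0.44 and 0.43, so the strength of each rested in part on those cows. Picked after their values were seen, GPX3 had r = 0.57 (permutation p = 0.0204, adjusted p = 0.624) and 0.76 without the 2 cows, and BCL3 went from 0.56 to 0.01. In the 9 cows with no B library r was 0.34, 0.18, 0.40 and 0.45 for the first 3 and GPX3.

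**Figure D5:**
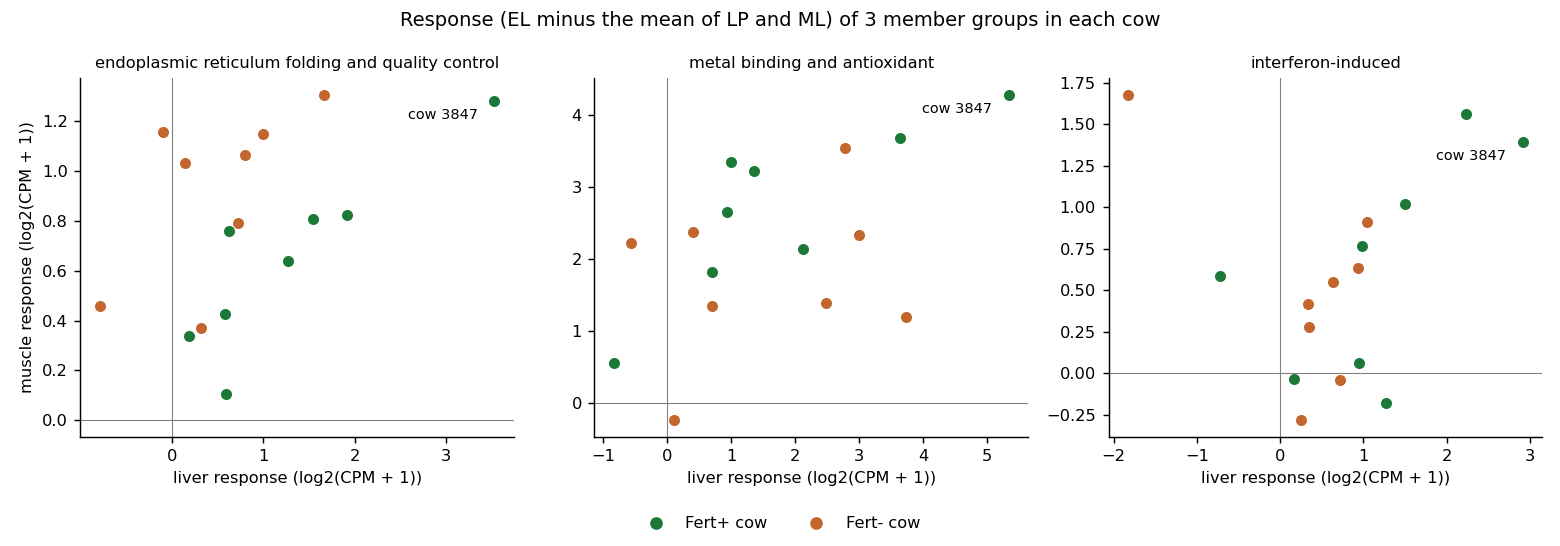
Mean response of 3 groups of named members (EL minus the mean of LP and ML, log2(CPM + 1)) in liver (x axis) and muscle (y axis), with 1 point per cow, green for Fert+ and orange for Fert-. Cow 3847 has the highest liver response in all 3 panels, 3.52 for the 9 ER folding genes, while muscle responses of these genes lie between 0.11 and 1.31 in all 16 cows.

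Genes of the same pathways that are no members were tested at EL against LP and ML over all 48 libraries of a tissue, with a gene counted as higher only where edgeR's quasi-likelihood test called both. By that count 2.16% of all genes were higher and 0.803% lower at EL in liver, 25.3% and 20.7% in muscle, and 0.934% were higher and 0.252% lower in both. The members, chosen on this contrast, are not counted as support: 67 were higher in liver, 79 in muscle and 58 in both. These tests, and so the calls of list and marker genes below, did not pair the libraries of a cow. For single genes other than LBP the fit with the cow as a block is not given here. The number of genes called in liver changed when a few libraries were left out. edgeR called 448 genes between EL and LP there, 136 without cow 3847 and 0 without the B libraries. At an unadjusted p under 0.05 edgeR had 2716 genes with all libraries and 1780 without the B libraries. A smaller number of libraries and a dependence on those left out cannot be told apart here. Of 158 non-member entries on 14 pathway lists, 122 were tested in both tissues, and 1 was higher in both. That entry was LBP, the lipopolysaccharide-binding protein of the acute phase, with medians of 281, 881 and 126 CPM at LP, EL and ML in liver and 0.19, 0.371 and 0.121 in muscle. Its log2 fold changes were 1.71 ± 0.50 (SE, edgeR adjusted p = 0.0481) against LP and 2.81 ± 0.53 (edgeR adjusted p = 8.16e-05) against ML in liver. The call in liver was lost without the B libraries, without cow 3847, with the cow as a replicate block and with no filter on low counts.

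The unfolded protein and integrated stress response list had 8 members and 12 other named entries. Of these 1 was higher in liver, and 3 were higher and 2 lower in muscle, none in both tissues. XBP1, the transcription factor of the unfolded protein response, was the one in liver, at medians of 242, 369 and 153 CPM. It differed by 1.09 ± 0.26 (SE, edgeR adjusted p = 0.021) against LP and 1.77 ± 0.27 (edgeR adjusted p = 4.98e-06) against ML. Without the B libraries 0 of 13773 genes were called against LP in liver. The call of XBP1 and the liver calls of list and marker genes below thus did not hold there. In muscle the medians of XBP1 were 30.5, 29.9 and 31.4 CPM. The log2 fold changes were -0.06 ± 0.15 (SE, edgeR adjusted p = 0.775) against LP and -0.14 ± 0.15 (edgeR adjusted p = 0.441) against ML. The part of XBP1 in the members' levels was not tested. CHAC1, DDIT4 and SLC3A2 were higher in muscle and ATF5 and PHGDH lower. These genes are known targets of ATF4, the factor of the amino acid branch. SLC3A2, an amino acid transporter chain, differed by 0.73 ± 0.17 (SE, edgeR adjusted p = 0.000235) against LP and 1.22 ± 0.17 (edgeR adjusted p = 3.42e-08) against ML there. The glucocorticoid list had members FKBP5 and MT2 and 19 other entries, of which 0 were higher or lower in liver and 8 were higher and 1 lower in muscle. GLUL, glutamine synthetase, and MAOA, monoamine oxidase, picked after their values were seen, were among those higher in muscle, by 2.47 and 2.12 against LP. The list of metal and oxidative stress genes held MT1A, MT2 and GPX3 and 15 other entries, with 0 called in liver and 9 higher and 2 lower in muscle. HMOX1, heme oxygenase, and SRXN1, which repairs oxidised peroxiredoxins, were picked in the same way. HMOX1 was higher in muscle by 2.38 against LP and SRXN1 by 2.46.

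Proteasome subunits held no member, and 13 of 14 were higher in muscle and 0 called in liver. FOXO and protein breakdown genes held none, with 11 of 12 higher and 1 lower in muscle and 0 called in liver. The acute-phase list (HP and A2M) had 21 other entries, of which 3 were higher in liver (LBP, SOCS3 and HAMP). In muscle 10 of them were tested and 2 were higher (LBP and PTX3). The immediate early list (MAFF) had 18 others, 1 higher in liver (JUNB), and 7 higher and 1 lower in muscle. The interferon list (ISG15 and OAS1Y) had 7 others, 0 called in liver, and 1 higher (MX1) and 2 lower (CXCL10 and PSMB9) in muscle. The NF-kB list (BCL3) had 6 others, with 0 called in liver and 4 lower in muscle. Fatty acid oxidation genes (CPT1B) had 11 others, with 0 called in liver and 4 higher and 1 lower in muscle. Heat shock genes had 8 entries (3 higher in muscle) and ribosome biogenesis and polyamines 5 (1 higher in liver, ODC1, and 2 in muscle). The cell cycle had 20, of which 6 were tested in muscle (3 higher and 2 lower), and the circadian clock 2 (0 called). None of these 4 lists held a member. Many list genes could not be matched by name, so these counts cover only the named entries. Entries too low to be tested in a tissue count there as not called.

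Markers of blood and immune cells were followed because a biopsy can hold them. 14 of 32 neutrophil markers had a name, and 7 of them in liver and 8 in muscle had a median count of 0, the cathelicidins CATHL1, CATHL2, CATHL3, CATHL5 and CATHL6, PGLYRP1 and AZU1 in both. The sum of the 14 ran from 11.5 to 46.6 CPM at LP, 15.98 to 275 at EL and 17.5 to 220.0 at ML in liver, with medians of 19.5, 27.5 and 39.7. In muscle it ran from 1.09 to 3.80, 1.44 to 25.3 and 0.502 to 7.31, with medians of 2.54, 4.05 and 1.74. Of the 14, 6 were tested in liver and 4 in muscle. S100A8, S100A9 and S100A12, calcium-binding proteins of neutrophils, were higher at EL in liver, and S100A9 and LTF, lactoferrin, in muscle. S100A9 had medians of 1.1, 1.83 and 0.909 CPM at LP, EL and ML in liver and 0.19, 0.482 and 0.091 in muscle. The part of neutrophils in the members' levels was not tested. Of 6 monocyte and macrophage, 3 lymphocyte, 3 erythroid and 1 platelet marker entries, 0 were called higher at EL in liver or muscle. In muscle only 5, 1, 0 and 0 of them could be tested. The summed level of the 6 monocyte and macrophage markers in muscle was highest at EL, with overlap. Its medians were 8.53 CPM at LP, 12.6 at EL and 7.38 at ML. In muscle 1 of 3 lymphocyte markers (IGJ), 1 of 3 endothelial (CLDN5), 1 of 5 adipocyte (ADIPOQ) and 3 of 3 fibroblast markers with a name were lower at EL. The summed level of the 3 endothelial markers was nonetheless highest at EL there, with medians of 117 CPM at LP, 170.3 at EL and 111 at ML, and that of the 5 adipocyte markers was 138, 168 and 197.

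The list of members depends on the scaling. On TMM-scaled totals the rule took 52 of the 100, and MANF, CALR, PDIA3, HSP90B1, SYVN1, ISG15, HERC6, OAS1Y and A2M were among those no longer taken, while MT1A, GPX3, MT2, FKBP5, CRELD2, HYOU1, DNAJB11 and P4HB remained. The median over cows in place of the mean and the data without the B libraries each kept 62. Leaving out 1 cow at a time kept between 76 and 92, lowest without cow 3847, and 46 members were taken in all 16 runs. With a minimum of 5 CPM 77 remained, and HP, CRELD2 and ISG15 were among those too low in muscle.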

How the data were processed

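Poly(A) RNA of 48 liver and 48 muscle biopsies was sequenced. Per the labels and the study's methods, the authors used CASAVA 1.8, aligned reads to UMD3.1 with STAR and counted read pairs per Ensembl gene with featureCounts. The deposited counts are whole, not normalized, and were used as deposited. 96 columns of the 2 tables of the whole series carry no sample name and were not used. Liver libraries held a median of 20466943.5 counts.

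The 100 members were found by the rule in a script from CPM. The members and the gene lists were chosen with earlier results of these data known, so values from the contrasts that chose them carry no test. Gene names come from the study's tables, which name 2160 identifiers (1288 of the 10423 genes kept), since no reference here pairs Ensembl numbers with symbols. RefSeq synonyms gave the newer symbols. No sequence of a member was used here.

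Tests used edgeR 4.0.16 in R 4.3.3 (TMM, filterByExpr, robust quasi-likelihood, Benjamini-Hochberg adjusted p under 0.05 over all genes tested). Genotypes were compared within each tissue and time-point, time-points and the interaction within each tissue. The tests of time-points and of the interaction did not pair the libraries of a cow, save where the cow was a block. Liver and muscle responses were correlated over 16 cows with 100000 permutations. Alternatives were RLE scaling, no filter, DESeq2 1.42.0, edgeR's exact test, leaving out the B libraries, the cow as a block and, added after seeing the data, leaving out cow 3847. The fits were tested on simulated data with 200 changed genes. Cow numbers in the labels pair the libraries: for deviations from group means, the median r between libraries of the same cow was 0.20 (liver) or 0.27 (muscle), and between different cows -0.05 or -0.03. SD values are the spread between cows, which includes counting error. SE values come from edgeR's quasi-likelihood fit and, for time-points, treat the libraries of a cow as unpaired.

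Genes were named by rule: the 12 leading members, members on a fixed list, the 2 smallest p per test, the genes at the limit, the 3 most abundant per tissue, the 3 lowest and highest of ML-LP, the 3 highest r and list genes higher in both tissues. Other named members and the 7 groups by role were picked after the names were known.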

Additional observations from a re-analysis of the deposited data

Results flagged for a closer look

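In 156 sets of 8 cows (the 12 leading members and the mean over the 100 members, by tissue, time-point and genotype), 9 had a cow set apart from the others, by a gap to the next cow, as a share of the set's range, above Dixon's critical value for 8 samples. Chance gives about 1 in 20 sets, so 9 of 156 is close to what chance gives. The sets are not independent, since the same cows recur and the leading members also enter the mean over the members.

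Fert+ cow 3847 was highest in 4 of them. At EL in liver it had 10.62 for HYOU1 against 8.04 in the next cow (gap 0.533 of the range) and 9.41 for DNAJB11 against 7.12 (gap 0.533), on the log2(CPM + 1) scale. At LP in muscle it had the highest mean over the members, 4.10 against 3.85 (gap 0.588), and 4.86 for MT2 against 3.72 (gap 0.546). Its liver libraries at EL and ML are B libraries.

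Fert- cow 426, whose mean liver EL-LP was below 0, was highest in liver at LP for the mean over the members, 5.83 against 5.19 (gap 0.650), and for ENSBTAG00000004937, 7.95 against 6.99 (gap 0.686). Fert- cow 164 was highest in liver at EL for the mean over the members, 6.38 against 5.73 (gap 0.532).

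At ML in liver GPX3 was 10.17 in Fert+ cow 430 against 7.34 in the next (gap 0.568), and HYOU1 was 7.41 in Fert+ cow 782 against 5.74 (gap 0.533).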

How the results depend on the processing

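Membership went to 52 of 100 on TMM-scaled totals, 62 with the median over cows and 62 without the B libraries. Leaving out 1 cow at a time kept 76 to 92. edgeR's exact test with 1 common dispersion called 6 members between genotypes at LP, 23 at EL and 9 at ML in liver, and 1, 7 and 3 at those time-points in muscle, where the quasi-likelihood test called 0 throughout. DESeq2 called 1 in liver at EL. Of the 100 genes rebuilt in Fert- cows, those higher in all 4 tests in Fert+ cows went from 8 to 14 with DESeq2, 0 without the B libraries and 5 without cow 3847. The count of list genes higher in both tissues went from 1 to 2 with DESeq2, and to 0 with no filter, without the B libraries, without cow 3847 and with the cow as a replicate block. The block also moved the 8 to 10, left the genes rebuilt in Fert+ cows at 0, and left the interaction at 0 members in liver and in muscle. LBP in liver kept its direction below the threshold, with log2 fold changes between 0.98 and 1.71. In all, 74 recomputed counts stayed within 1.5 times the reported ones, among them the leave-one-out lists and the 10 with the block. Many of the 74 were 0 against 0, in tests where almost no gene passed, and say nothing on how stable a result is. The causes of the shifts above were not tested. What depth limits was not measured. Members with medians under 1 CPM in muscle rest on few counts.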
